A study of Mus musculus with 9 samples.

Results

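The genes described here are 10 markers of macrophages and other leukocytes: Lyz2, Cd68, Laptm5, Csf1r, Cd14, Ptprc, C1qa, C1qb, C1qc and Tyrobp. They were chosen by name, and each is the probe set that the platform annotation gives that 1 symbol, which makes 10 of the 19938 genes measured. Each had 1 row in the table, all 10 were tested without a filter on low values, and no gene had to pass a level to be included. They were read in 3 groups of 3 samples, each sample on 1 Affymetrix Mouse Gene 1.0 ST array. These were cells labelled as dedifferentiated mouse cardiac fibroblasts, from a study of protein-based dedifferentiation, an ES cell line labelled C57, and adult cardiac fibroblasts. All were labelled C57BL/6. Because the fibroblasts' source label names ES cells as well, the groups follow the sample titles. The labels do not say whether samples of a group are separate animals or cultures, nor how the fibroblasts were isolated, so a p-value here reflects the variation among 3 samples that could be technical repeats.

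Macrophages are phagocytes that live in most tissues, the heart included, and take part in clearing cells and in scarring. Primary cultures of a digested organ can carry resident macrophages with the fibroblasts. Macrophages depend on the Csf1 receptor, read bacterial products through Cd14 and Toll-like receptor 4, signal through the adaptor Tyrobp, secrete lysozyme and the complement protein C1q, and digest what they engulf in lysosomes. Ptprc, known as Cd45, is carried by nearly all white blood cells, and ES cells belong to no blood lineage. Comparing fibroblasts with ES cells therefore shows how far the leukocyte markers in the fibroblast samples stood above a culture of another kind. Comparing fibroblasts with dedifferentiated cells shows whether the dedifferentiated cells had like signals.

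On all arrays the medians of the log2 values lay between 4.65 and 4.86, and arrays of 1 group correlated at 0.9875 to 0.9946. The cell type named in the labels was borne out by its markers. All 13 measured fibroblast markers were lower in dedifferentiated and in ES cells than in fibroblasts, all 10 pluripotency markers were higher, and 0 of 10 cardiomyocyte markers were called by limma in either comparison, with 5 in dedifferentiated and 6 in ES cells at an unadjusted p under 0.05. Pou5f1, which encodes Oct4, was at 11.17 to 11.24 in dedifferentiated cells, at 11.15 to 11.32 in ES cells and at 2.91 to 4.16 in fibroblasts. Col1a1, a collagen gene, was at 7.07 to 7.21, at 6.57 to 7.14 and at 12.54 to 12.68 in the same groups. Xist, the RNA of the inactive X chromosome, was at 3.07 to 3.49 in dedifferentiated cells, at 2.78 to 3.39 in ES cells and at 7.24 to 7.39 in fibroblasts. The Y-linked gene Eif2s3y was at 7.95 to 8.18 in dedifferentiated cells, 7.47 to 7.95 in ES cells and 3.45 to 3.69 in fibroblasts, and the Y-linked gene Uty at 6.31 to 6.40, 5.46 to 5.81 and 3.52 to 4.10 in the same groups. In these sex-linked transcripts the dedifferentiated cells stood with the ES cells and apart from the fibroblast samples, although their label names cardiac fibroblasts as the origin. Whether they came from the same animals as the fibroblast samples is not stated. A difference in sex or animals and the difference in cell type cannot be told apart here. The dedifferentiated and fibroblast samples are therefore not read as the same culture before and after dedifferentiation.

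The promoters of 6 members were in the RefSeq table of build GRCm38.p6. Shown are the 250 bases before the transcript start of Lyz2 and of its neighbour and paralog Lyz1, of C1qb and C1qc, neighbours with differences of like size, and of Cd68 and Laptm5, the members that went the other way. Capitals mark ACTTCCT, which is AGGAAGT on the other strand, a purine-rich sequence with the GGAA core that ETS family factors such as PU.1, the product of Spi1, bind in macrophage genes. The letters were chosen after the sequences had been seen.
Lyz2: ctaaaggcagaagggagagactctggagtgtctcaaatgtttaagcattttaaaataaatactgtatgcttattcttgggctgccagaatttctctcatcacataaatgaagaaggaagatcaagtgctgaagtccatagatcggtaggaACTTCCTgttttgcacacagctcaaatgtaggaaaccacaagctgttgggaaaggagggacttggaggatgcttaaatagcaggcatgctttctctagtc
Lyz1: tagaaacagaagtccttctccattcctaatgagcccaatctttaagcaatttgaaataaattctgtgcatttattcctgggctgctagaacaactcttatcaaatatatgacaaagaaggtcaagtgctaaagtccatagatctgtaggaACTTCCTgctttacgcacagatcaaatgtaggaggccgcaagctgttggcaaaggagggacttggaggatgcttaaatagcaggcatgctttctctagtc
C1qb: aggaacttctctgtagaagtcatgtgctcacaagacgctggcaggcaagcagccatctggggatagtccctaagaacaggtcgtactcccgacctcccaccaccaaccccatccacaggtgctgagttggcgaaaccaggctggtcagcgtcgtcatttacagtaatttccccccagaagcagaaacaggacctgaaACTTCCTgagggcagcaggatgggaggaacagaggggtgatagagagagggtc
C1qc: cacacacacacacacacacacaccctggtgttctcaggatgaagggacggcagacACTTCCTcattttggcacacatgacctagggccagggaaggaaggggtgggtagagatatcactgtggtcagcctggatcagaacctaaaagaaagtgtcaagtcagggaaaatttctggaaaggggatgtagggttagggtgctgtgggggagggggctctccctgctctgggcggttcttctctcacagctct
Cd68: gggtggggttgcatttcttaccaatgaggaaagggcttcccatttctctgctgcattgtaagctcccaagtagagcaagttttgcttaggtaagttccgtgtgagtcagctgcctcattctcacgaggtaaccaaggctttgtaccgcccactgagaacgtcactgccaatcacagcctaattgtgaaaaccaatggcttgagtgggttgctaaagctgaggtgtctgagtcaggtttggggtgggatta
Laptm5: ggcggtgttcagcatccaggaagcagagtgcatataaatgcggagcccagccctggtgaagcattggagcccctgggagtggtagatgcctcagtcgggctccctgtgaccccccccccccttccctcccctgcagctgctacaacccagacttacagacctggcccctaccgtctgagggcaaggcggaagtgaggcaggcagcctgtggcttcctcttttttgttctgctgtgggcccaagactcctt
The Lyz2 stretch is chr10:117282273-117282522 and that of Lyz1 chr10:117292869-117293118, both on the minus strand. The C1qb stretch is chr4:136886201-136886450 and that of C1qc chr4:136892915-136893164, also on the minus strand. Cd68 is at chr11:69666171-69666420 on the minus strand and Laptm5 at chr4:130913066-130913315 on the plus strand. AGGAAGT, searched on both strands, was found in windows of Lyz2, C1qb, C1qc and Ptprc, 4 of the 6 members searched. Among all promoter windows of the same length it was found in 2525 of 32841 (7.69%). Because the letters were chosen after sequences of members had been seen, and members were counted by gene, these shares are no test of the members. The GGAA core without the full match also lies in the Cd68 and Laptm5 windows. A match describes the letters and is no evidence of binding. The Lyz2 and Lyz1 windows were identical at 205 of 260 aligned positions (78.9%), and their last 50 bases before the start were the same. The match lies at the same distance before the start in both.

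Of the 10 markers, 5 were lower in dedifferentiated cells than in fibroblasts and 2 were higher, and the counts were again 5 and 2 for ES cells against fibroblasts. A gene was called at a Benjamini-Hochberg adjusted p under 0.05 in limma's moderated test and a difference of at least 1 log2 unit, which is a doubling. Over all genes, 18.9% were called in dedifferentiated cells against fibroblasts and 19.2% in ES cells against fibroblasts, of which 10.1% and 10.4% of genes were lower and 8.79% and 8.85% higher. The lower genes were Lyz2, C1qa, C1qb, C1qc and Tyrobp, the higher ones Cd68 and Laptm5, in both comparisons, which share the 3 fibroblast arrays. Csf1r, Cd14 and Ptprc were lower with adjusted p from 1.8e-05 to 0.0022 but by less than 1 log2 unit. Thus 8 of 10 markers were lower and 2 higher at the adjusted p alone, in each comparison. Of all genes, 47.4% passed it for dedifferentiated cells (22.4% lower, 25.0% higher) and 49.0% for ES cells (22.9% lower, 26.1% higher). The arrays of the groups compared did not overlap for any of the 10 genes, with fibroblasts higher for 8 and lower for 2. Over all genes this held for 54.7% in dedifferentiated cells (25.8% lower, 28.9% higher) and 51.9% in ES cells (24.4% lower, 27.6% higher). The median difference of the 10 was -1.05 in dedifferentiated cells and -0.98 in ES cells, each minus fibroblasts, beside 0.01 and 0.02 over all genes. In bulk samples such as these, fewer cells of a type and less RNA per cell cannot be told apart. The sum of the linear values of the 13 fibroblast markers also differed, at 2953 to 3078 on dedifferentiated, 1174 to 1447 on ES and 35020 to 38250 on fibroblast arrays, and its part in these differences was not tested.

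**Figure D1:**
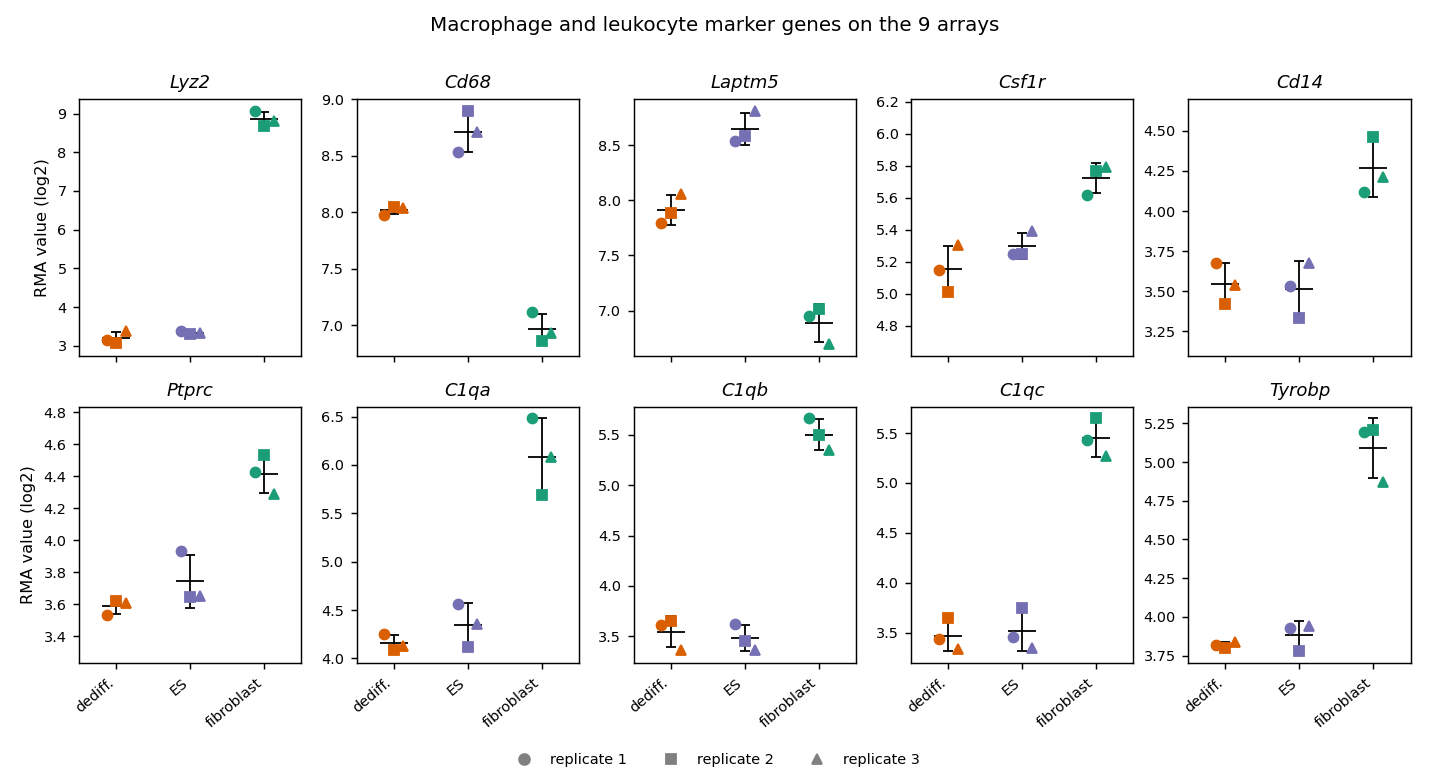
RMA values on a log2 axis (vertical, a separate scale for each gene) of the 10 markers on the 3 dedifferentiated, 3 ES and 3 fibroblast arrays (horizontal), with points for arrays, shapes for replicate numbers, and bars for the mean and SD of 3. The fibroblast arrays stand above the other 6 for 8 genes, by most for Lyz2, and below them for Cd68 and Laptm5.

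Among the secreted products, Lyz2, the lysozyme of macrophages and granulocytes that cleaves bacterial cell walls, differed by far the most of the 10. Its values were 3.15, 3.07 and 3.38 in dedifferentiated cells, 3.39, 3.30 and 3.32 in ES cells, and 9.07, 8.68 and 8.81 in fibroblasts (replicates 1 to 3). All fibroblast arrays were high and the other 6 low and close together. The difference was -5.65 log2 units (50.3-fold, 95% interval -5.90 to -5.41, adjusted p = 6.3e-12) for dedifferentiated cells minus fibroblasts. It was -5.52 (45.9-fold, -5.76 to -5.28, adjusted p = 6.2e-12) for ES cells minus fibroblasts. RMA values of dim probe sets are compressed toward the background, so these folds can understate the difference.

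Lyz1, the lysozyme of Paneth cells in the gut, lies next to Lyz2 in the genome and was read by its own probe set. It had 3.37, 3.29 and 3.74 in dedifferentiated cells, 2.73, 2.75 and 3.13 in ES cells, and 4.20, 4.29 and 4.37 in fibroblasts. Its difference from fibroblasts was -0.82 (95% interval -1.12 to -0.52) in dedifferentiated cells, short of the size required, and -1.42 (-1.72 to -1.12, adjusted p = 3e-06) in ES cells. The 2 genes are close relatives, and how far the Lyz2 transcript binds the Lyz1 probes was not tested. No difference of a size near that of Lyz2 was measured for Lyz1.

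C1qa, C1qb and C1qc encode the chains A, B and C of C1q, the recognition part of the first complement complex, which tissue macrophages make. The genes lie side by side on chromosome 4 in the order C1qb, C1qc, C1qa, with no other gene of the RefSeq table starting between them. C1qa had 4.26, 4.09 and 4.13 in dedifferentiated cells, 4.57, 4.12 and 4.35 in ES cells, and 6.48, 5.69 and 6.09 in fibroblasts. C1qb had 3.61, 3.65 and 3.37 in dedifferentiated cells, 3.62, 3.46 and 3.36 in ES cells, and 5.66, 5.49 and 5.35 in fibroblasts. C1qc had 3.44, 3.64 and 3.34 in dedifferentiated cells, 3.46, 3.75 and 3.35 in ES cells, and 5.43, 5.65 and 5.27 in fibroblasts. For each chain the fibroblast arrays were the high ones, and no value of the other 6 arrays reached them. The fibroblast arrays differed most from each other for C1qa (SD 0.40) and less for C1qb (0.16) and C1qc (0.19).

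The difference from fibroblasts was of like size for the 3 chains. In dedifferentiated cells minus fibroblasts the differences were -1.93 for C1qa (95% interval -2.31 to -1.54), -1.96 for C1qb (-2.20 to -1.71) and -1.98 for C1qc (-2.26 to -1.69), with adjusted p of 2e-06, 3.2e-08 and 1.1e-07. In ES cells minus fibroblasts they were -1.74 (-2.12 to -1.35), -2.02 (-2.27 to -1.78) and -1.93 (-2.21 to -1.64), with adjusted p of 4.7e-06, 2.3e-08 and 1.4e-07. All 3 chains thus differed between about 3.34-fold and 4.06-fold. C1qc was the member with the pattern over the arrays most like that of C1qb. Their root mean square difference was 0.16 log2 units over the 9 arrays after each gene's mean was subtracted. Over all genes, 116 lay within 0.2 log2 units of C1qb, the closest at 0.097 (Fzd8).

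Among the signalling proteins, Tyrobp, also called DAP12, is the adaptor through which receptors such as Trem2 signal in macrophages and NK cells. It had 3.82, 3.80 and 3.84 in dedifferentiated cells, 3.93, 3.78 and 3.94 in ES cells, and 5.20, 5.21 and 4.87 in fibroblasts. Fibroblast replicate 3 was the lowest of its group and still above the other 6 arrays. The difference was -1.28 (95% interval -1.49 to -1.06, adjusted p = 4.9e-07) for dedifferentiated cells minus fibroblasts and -1.21 (-1.43 to -0.99, adjusted p = 7.5e-07) for ES cells minus fibroblasts.

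The receptors showed smaller differences in the same direction. Csf1r, the receptor for the macrophage growth factors Csf1 and Il34, had 5.15, 5.01 and 5.30 in dedifferentiated cells, 5.25, 5.25 and 5.39 in ES cells, and 5.62, 5.77 and 5.79 in fibroblasts. Its differences were -0.57 (95% interval -0.77 to -0.36) in dedifferentiated and -0.43 (-0.63 to -0.22) in ES cells, each minus fibroblasts. Of the 10 genes it differed least. Cd14, which hands lipopolysaccharide to Toll-like receptor 4, had 3.68, 3.42 and 3.54 in dedifferentiated cells, 3.53, 3.33 and 3.68 in ES cells, and 4.12, 4.46 and 4.21 in fibroblasts. It differed by -0.72 (-0.98 to -0.46) and by -0.75 (-1.01 to -0.49). Ptprc, the tyrosine phosphatase Cd45 that tunes Src family kinases in leukocytes, had 3.53, 3.62 and 3.61 in dedifferentiated cells, 3.93, 3.64 and 3.66 in ES cells, and 4.43, 4.53 and 4.29 in fibroblasts. Its differences were -0.83 (-1.04 to -0.61) and -0.67 (-0.89 to -0.46). The fibroblast arrays of these receptor genes were above all others without overlap, but none of the differences reached 1 log2 unit. For Cd14 and Ptprc even the fibroblast values lay below the array medians, 4.65 to 4.86. Compression toward the background can understate these differences as well.

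Cd68 and Laptm5, the lysosomal membrane proteins among the markers, went the opposite way. Cd68, a heavily glycosylated relative of the Lamp proteins used as a macrophage stain, had 7.98, 8.04 and 8.04 in dedifferentiated cells, 8.54, 8.90 and 8.71 in ES cells, and 7.12, 6.86 and 6.93 in fibroblasts. Laptm5, a lysosomal protein of blood cells that helps to degrade antigen receptors, had 7.79, 7.88 and 8.06 in dedifferentiated cells, 8.54, 8.58 and 8.81 in ES cells, and 6.95, 7.02 and 6.70 in fibroblasts. For both genes the ES arrays were highest, the dedifferentiated arrays in between and the fibroblast arrays lowest, with no overlap. ES cells had more of both than fibroblasts, Cd68 by 1.75 (95% interval 1.52 to 1.97, adjusted p = 4.2e-08) and Laptm5 by 1.75 (1.51 to 2.00, adjusted p = 8.5e-08). In dedifferentiated cells minus fibroblasts, Cd68 was higher by 1.05 (0.83 to 1.28, adjusted p = 3.5e-06) and Laptm5 by 1.02 (0.78 to 1.27, adjusted p = 9.3e-06). These last calls rest on the size required. Cd68 was at 0.999 without fibroblast replicate 2, and Laptm5 at 0.93 without fibroblast replicate 3 and at 0.95 without dedifferentiated replicate 3. A further quantile normalization gave 0.998 for Cd68 and 0.96 for Laptm5, and median centring 0.93 and 0.90.

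**Figure D2:**
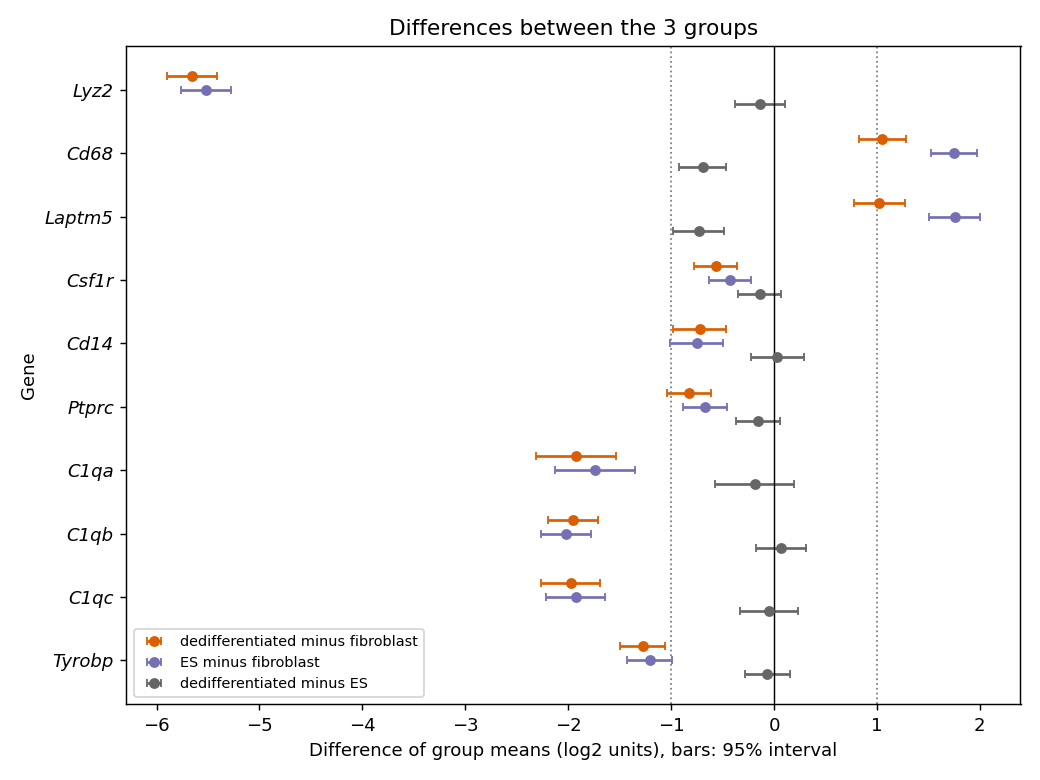
Differences of group means in log2 units (horizontal) for the 10 markers (vertical), with 95% intervals from limma over 9 arrays and dotted lines at a difference of 1 log2 unit in either direction. Lyz2 stands apart near -5.6 in both comparisons with fibroblasts, Cd68 and Laptm5 are the genes above 0 there, and the differences between dedifferentiated and ES cells lie between -0.73 and 0.07.

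Between dedifferentiated and ES cells, 0 of the 10 genes were called by limma, beside 1.55% of all genes (0.547% lower, 1.01% higher). At an adjusted p under 0.05 with no minimum size, 2 of the 10 were lower in dedifferentiated cells, beside 21.3% of all genes in either direction (11.2% higher), and an unadjusted p under 0.05 was met by the same number, 2. They were Cd68, at -0.69 (95% interval -0.92 to -0.47, adjusted p = 0.00068), and Laptm5, at -0.73 (-0.98 to -0.49, adjusted p = 0.00082), dedifferentiated minus ES cells. The other 8 had adjusted p from 0.34 to 0.92. Their intervals all lay within 0.57 log2 units of 0, the widest being that of C1qa at -0.19 (-0.57 to 0.20). The difference of Lyz2 was -0.13 (-0.38 to 0.11). The arrays of dedifferentiated and ES cells did not overlap for Cd68, Laptm5 and Ptprc, with dedifferentiated cells lower, 3 of 10 genes beside 32.6% of all genes (15.6% lower, 16.9% higher).

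The order of the levels was thus the same for 8 genes, with fibroblasts highest and the neighbouring dedifferentiated and ES groups not separated by the test. For Cd68 and Laptm5 it ran from ES cells over dedifferentiated cells to fibroblasts, and neighbours differed at the adjusted p. Among the 3 fibroblast arrays, the 8 genes that were higher there did not share an order. Replicate 1 was highest for 3 of them (Lyz2, C1qa and C1qb), replicate 2 for 4 (Cd14, Ptprc, C1qc and Tyrobp) and replicate 3 for Csf1r. Replicate 3 was lowest for 4 of the 8.

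Other macrophage genes were read from a list of 37, of which 34 had a row. In dedifferentiated cells 7 were lower than in fibroblasts and 1 higher. In ES cells 7 were lower and 0 higher. These shares, 23.5% and 20.6%, are close to the 18.9% and 19.2% of all genes called, and the list medians were -0.28 and -0.33. At the adjusted p alone, 17 of the 34 were lower in dedifferentiated cells and 19 in ES cells, beside 22.4% and 22.9% of all genes. The sum of the list's linear values was 585 to 611 on the dedifferentiated, 520 to 549 on the ES and 1024 to 1139 on the fibroblast arrays.

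Of the 34 measured genes of that list, 26 were not called in dedifferentiated cells and 27 were not called in ES cells. The called ones follow. Ctss, the lysosomal protease cathepsin S of antigen-presenting cells, had 4.01, 3.96 and 3.93 in dedifferentiated cells, 4.15, 3.93 and 3.84 in ES cells, and 8.24, 7.64 and 7.72 in fibroblasts. It differed by -3.90 in both comparisons with fibroblasts (adjusted p = 8.3e-10 for dedifferentiated and 8e-10 for ES cells). Mpeg1, the pore-forming protein perforin-2 of macrophages, had 3.29, 3.49 and 3.63 in dedifferentiated cells, 3.57, 3.03 and 3.35 in ES cells, and 6.51, 6.39 and 6.34 in fibroblasts. It differed by -2.94 and -3.10 in the same order. The chemokine Pf4 differed by -2.60 and -2.56, the oxidase subunit Cybb by -1.99 and -1.90, the integrin Itgam, or Cd11b, by -1.77 and -1.78, the Fc receptor adaptor Fcer1g by -1.51 and -1.73, and the scavenger receptor Msr1 by -1.24 and -1.18. All 7 had fibroblast arrays above the other 6. Mertk, a receptor for dying cells, was 2.14-fold higher in dedifferentiated cells than in fibroblasts (log2 interval 0.84 to 1.35), and in ES cells its log2 difference was 0.43 (0.17 to 0.69), not called.

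Other genes often used to define macrophages differed by less than 1 log2 unit. Adgre1, which encodes F4/80, was at 3.15 to 3.30 in dedifferentiated cells, 3.16 to 3.27 in ES cells and 3.99 to 4.37 in fibroblasts, and differed by -0.90 (95% interval -1.12 to -0.68) and -0.93 (-1.16 to -0.71). The haemoglobin scavenger receptor Cd163 differed by 0.09 (-0.18 to 0.35) and 0.12 (-0.15 to 0.39), the mannose receptor Mrc1 by -0.50 and -0.51, the fractalkine receptor Cx3cr1 by -0.23 and -0.28, Trem2 by -0.23 and -0.42, and Aif1, also called Iba1, by -0.06 and -0.03, in dedifferentiated and ES cells minus fibroblasts. None of these was called. At limma's adjusted p alone, Adgre1 (9.3e-06), Trem2 (0.0029), Mrc1 (0.006) and Cx3cr1 (0.043) were lower in ES cells than in fibroblasts. Cd163 and Aif1 were not (0.48 and 0.83). They were named after their values had been seen.

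**Figure D3:**
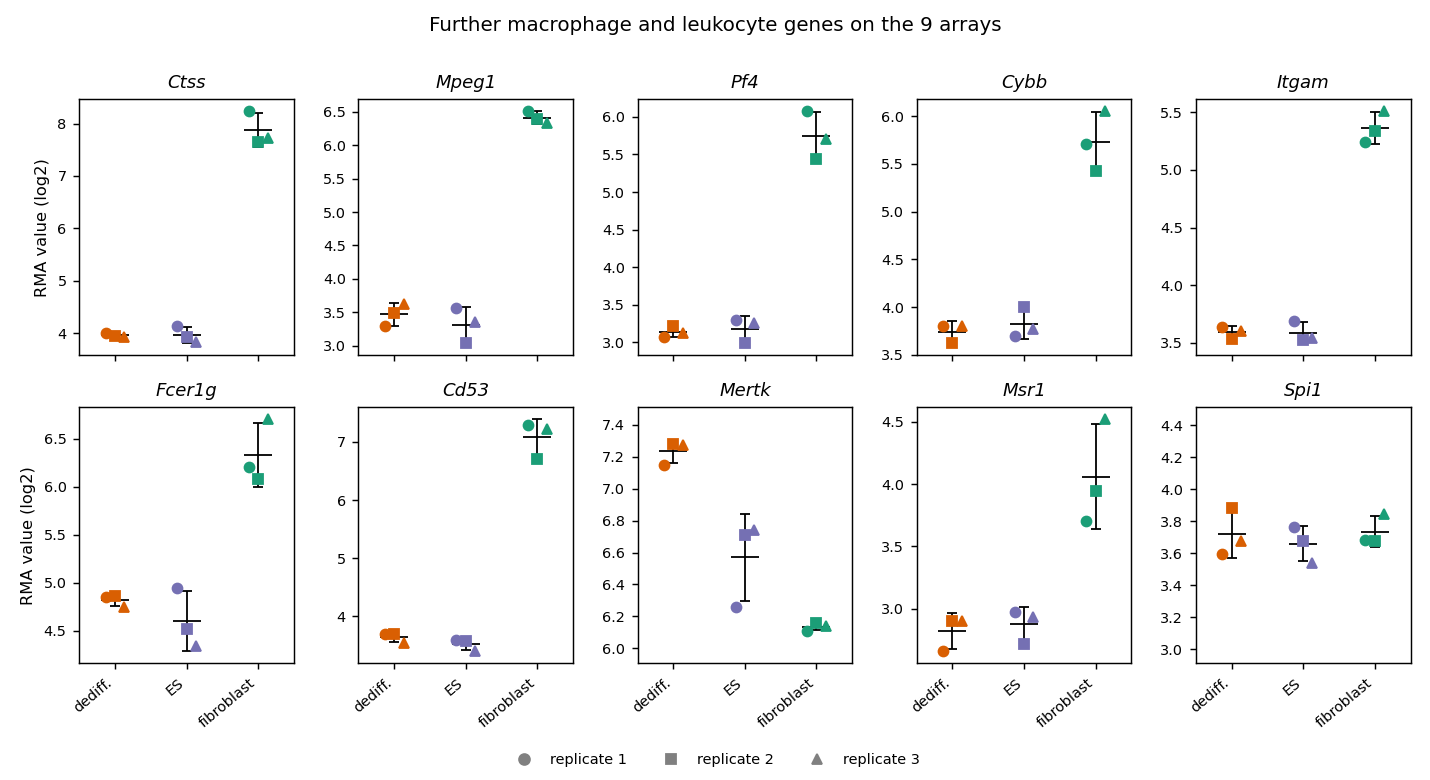
RMA values on a log2 axis (vertical, a separate scale for each gene) of 8 called genes of the macrophage list, of the leukocyte tetraspanin gene Cd53 and of the lineage factor gene Spi1 on the 3 dedifferentiated, 3 ES and 3 fibroblast arrays (horizontal), with bars for the mean and SD of 3. The fibroblast arrays stand above the others for 8 genes, Mertk is highest in dedifferentiated cells, and Spi1 overlaps between all groups. The 26 genes of the macrophage list that were not called in either comparison with fibroblasts are not drawn.

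Of 23 measured genes shared by leukocytes, 3 were lower and 3 higher in dedifferentiated cells than in fibroblasts, and 4 were lower and 3 higher in ES cells (list medians -0.09 and -0.11). These are 26.1% and 30.4% called, beside 18.9% and 19.2% of all genes. Cd53, a leukocyte tetraspanin, was at 3.54 to 3.70 in dedifferentiated cells, 3.40 to 3.60 in ES cells and 6.71 to 7.30 in fibroblasts, with differences of -3.43 (95% interval -3.74 to -3.13) and -3.55 (-3.85 to -3.24). Itgb2, the partner chain of Itgam, differed by -1.16 and -1.36. The higher genes were Srgn, which encodes the proteoglycan serglycin, at 4.46 and 3.91, the phosphatase gene Ptpn6 at 1.79 and 1.67, and the inositol phosphatase gene Inpp5d at 1.69 and 2.48. Like Cd68 and Laptm5, these are leukocyte genes with more signal in the dedifferentiated and ES cells than in the fibroblasts. The pan-leukocyte genes Coro1a and Ikzf1 were not called, with Coro1a at 5.31 to 5.44 in dedifferentiated cells, 5.06 to 5.47 in ES cells and 4.98 to 5.33 in fibroblasts.

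Lists for other blood cells had these medians in ES cells minus fibroblasts: 0.02 for 18 T and NK cell genes, 0.03 for 11 B cell genes, 0.04 for 19 neutrophil and mast cell genes, 0.14 for 13 dendritic cell and MHC class II genes and 0.04 for 8 erythroid and platelet genes. Called lower in ES cells were Thy1, a T cell antigen that fibroblasts also carry, at -2.73, the T cell costimulator gene Cd28 at -1.89, the B cell receptor gene Cd72 at -1.21 and the neutrophil collagenase gene Mmp8 at -2.41. Kit, the receptor of mast cells and of germ and stem cells, was higher by 3.86. The same 5 genes were the called ones in dedifferentiated cells, at -1.88, -1.91, -1.28, -2.46 and 4.51. In each comparison 11.1% of the T and NK, 9.09% of the B and 10.5% of the neutrophil and mast cell genes were called. Of all genes, 18.9% were called in dedifferentiated and 19.2% in ES cells. No gene of the dendritic and erythroid lists was called by limma in either comparison. At an unadjusted p under 0.05 there were 3 and 1 in dedifferentiated cells and 2 and 3 in ES cells. In the dendritic list, the invariant chain gene Cd74 was at 3.50 to 3.76 in dedifferentiated cells, 3.51 to 3.61 in ES cells and 3.31 to 3.55 in fibroblasts. Of 10 endothelial markers, 5 were higher and 1 lower in dedifferentiated cells, and 2 were higher and 1 lower in ES cells, beside 8.79% and 8.85% of all genes higher and 10.1% and 10.4% lower, with Pecam1, an adhesion protein also found on ES cells, at 2.44 and 2.48. Which cells of the fibroblast samples held the macrophage transcripts was not tested.

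**Figure D4:**
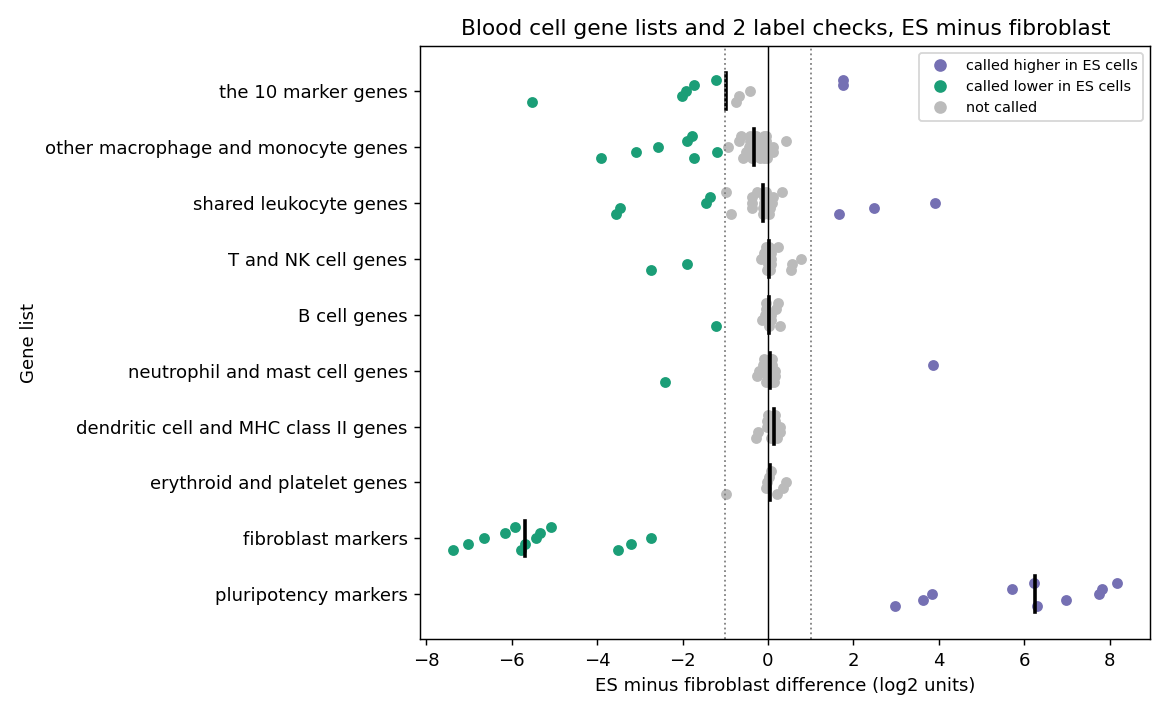
ES minus fibroblast differences in log2 units (horizontal) of every measured gene of 10 lists (vertical), with a point for each gene, a black bar for the list's median and dotted lines at a difference of 1 log2 unit in either direction. The macrophage genes spread to the left, and the fibroblast and pluripotency lists stand far to either side. In the lists of other blood cells the medians lie between 0.02 and 0.14. These lists hold 5 called genes, at most 11.1% of a list, beside 19.2% of all genes.

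The partners of the 10 proteins were read by pathway. Csf1, the main ligand of Csf1r, was at 6.39 to 6.60 in dedifferentiated cells, 5.54 to 5.74 in ES cells and 11.48 to 11.64 in fibroblasts, a difference of -5.03 (95% interval -5.23 to -4.83) and -5.95 (-6.15 to -5.75). Fibroblasts are a known source of this factor. Of the 11 measured ligands and lineage factors, 3 (27.3%) were lower and 0 higher in each comparison, beside 10.1% and 10.4% of all genes lower. They were Csf1, Cebpb (-1.77 and -1.79) and Runx1 (-1.43 and -2.51). Spi1, which encodes the macrophage factor PU.1, differed by -0.02 (-0.23 to 0.20) and -0.08 (-0.29 to 0.14), with arrays that overlapped in all groups, and was named after its value had been seen.

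Of 13 measured genes of the Toll-like receptor 4 pathway around Cd14, 5 (38.5%) were lower in dedifferentiated cells and 6 (46.2%) in ES cells, beside 10.1% and 10.4% of all genes, and 0 were higher. The list medians, -0.79 and -0.72, were near the values of Cd14. Tlr4 itself differed by -3.39 in dedifferentiated and -3.63 in ES cells, its co-receptor Ly96 by -2.45 and -3.70, the lipopolysaccharide carrier Lbp by -3.01 and -3.72, and the adaptor Myd88 by -1.54 and -1.83. Ly96 was higher in dedifferentiated than in ES cells by 1.25 (adjusted p = 0.00012), and its 3 dedifferentiated arrays held the same value, 4.51.

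Of 11 measured genes around the C1 complex, 7 were lower and 1 higher than in fibroblasts in each comparison, together 72.7%, beside 18.9% and 19.2% of all genes called. Serping1, the inhibitor of the C1 proteases, differed by -3.38 and -3.98, C4b, the component that C1 cleaves, by -2.23 and -2.39, and the anaphylatoxin receptor C3ar1 by -1.84 and -2.37. C1qbp, a mitochondrial protein first found by its binding to C1q, was higher by 1.52 and 1.19.

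Of 13 measured receptors and kinases linked to Tyrobp, 2 were lower in each comparison, Fcer1g and Clec5a (-1.41 and -1.32). With the higher genes, 23.1% were called in dedifferentiated and 30.8% in ES cells, beside 18.9% and 19.2% of all genes. The downstream enzyme gene Plcg2 was higher by 2.06 in dedifferentiated and 1.19 in ES cells, and the kinase gene Syk by 1.03 in ES cells, with 0.99 in dedifferentiated cells. As for Ly96 in dedifferentiated cells, the 3 ES arrays of Plcg2 held the same value, 6.68. Of 10 measured substrates and partners of Cd45, 3 were lower in dedifferentiated and 4 in ES cells and 0 higher, beside 10.1% and 10.4% of all genes lower, among them the kinase genes Jak1 (-2.33 and -1.48) and Jak2 (-1.78 and -2.51).

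Of 19 measured lysosomal genes and relatives of Cd68, Laptm5 and Lyz2, 9 were lower in each comparison, beside 10.1% and 10.4% of all genes. The protease gene Lgmn was higher in dedifferentiated cells by 1.06, as were 8.79% of all genes, and none of the list was called higher by limma in ES cells, where 8.85% of all genes were and 2 of the list were higher at an unadjusted p under 0.05. Lamp2 differed by -1.68 and -1.55 and Lamp1 by -0.21 and -0.31. Laptm4a differed by -0.81 and -0.75, Laptm4b by 0.48 and 0.26, and the collagen-degrading cathepsin gene Ctsk by -4.56 and -4.47.

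For each called marker the 3 genes with the closest pattern over the 9 arrays were taken. The measure was the root mean square difference after each gene's mean was subtracted. Lyz2 was closest to Trim30a (0.13), Clca3a1 (0.13) and Dpep1 (0.13 log2 units), and 11 genes lay within 0.2. C1qa was closest to Ebf3 (0.11), C1qb to Fzd8 (0.097) and C1qc to Cd28 (0.083). Tyrobp was closest to Nenf (0.088), among 361 genes within 0.2, Cd68 to Gm4779 (0.070) and Laptm5 to Slc4a8 (0.10). The next closest were Ttc9 and Fbxo4 for C1qa, Adcy7 and Glis3 for C1qb, Plxna4 and C1qtnf6 for C1qc, Ift22 and Lrp12 for Tyrobp, Eif4a2 and Mdm1 for Cd68, and Atp8a1 and Gpr19 for Laptm5. None of these neighbours was another of the 10 markers. With 3765 genes called between dedifferentiated cells and fibroblasts alone, such likeness describes the pattern over the arrays and nothing more.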

How the data were processed

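RNA of 9 samples was hybridised to 1-colour arrays. The deposited values are log2 expression values, made with RMA in Affymetrix Expression Console 1.1 per the submitters' processing notes. RMA makes the arrays' distributions alike, which hides any global change in RNA, and the values used here carry no detection call. Of 35557 rows, 21789 had 1 symbol in the platform annotation. The row with the highest mean per gene left 19938 genes, and each marker had 1 row.

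All arrays entered 1 fit in limma 3.58.1 (R 4.3.3), and p-values were adjusted over all genes. An exact permutation test of 3 against 3 cannot go below p = 0.1. The fit was tested on artificial data with known answers. The markers and 17 gene lists were chosen with earlier results of these data known. The rule for named genes took the markers, the 3 closest genes of each called marker, paralogs and label checks. From each list and comparison it took the 2 called genes higher by most and the 2 lower by most. Where none was called, it took the gene with the smallest p. It made more genes eligible than are named. Further genes of these lists, Xist, Eif2s3y and Uty were named after their values were seen. Not all called genes are named, and 1 that the rule made eligible is not reported here. Of 261 listed genes, 241 had a row. Promoter windows were aligned with Biopython 1.88. Alternatives were other scalings, filters, rows, variance models, samples and call rules.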

Additional observations from a re-analysis of the deposited data

How the results depend on the processing

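Under 23 alternatives, the differences of Lyz2, C1qa, C1qb, C1qc and Tyrobp from fibroblasts kept their direction and call wherever these genes were tested. For all markers and comparisons, 630 of 651 values kept direction and side, and 0 called values reversed. The uncalled differences between dedifferentiated and ES cells changed sign 5 times (Tyrobp, Cd14 and C1qc). Dim genes limit the counts. The filter above the median level kept Cd68, Laptm5 and Csf1r alone, so 2 markers were called against fibroblasts in either comparison. A mean of at least 6 in any group kept Lyz2, Cd68, Laptm5 and C1qa, and 4 were called. Lyz2 and C1qa passed that filter only through their fibroblast means, 8.85 and 6.08. Their calls under it are therefore no further support. Median centring moved the median of all genes by -0.12 against fibroblasts. For dedifferentiated cells minus fibroblasts it gave Cd68 at 0.93 and Laptm5 at 0.90, a second quantile normalization gave 0.998 and 0.96, and leaving out arrays gave 0.999 to 1.13 and 0.93 to 1.09, partly under the required size. Without a minimum size, all 10 markers passed in both comparisons with fibroblasts, Csf1r at -0.57 and -0.43, Cd14 at -0.72 and -0.75 and Ptprc at -0.83 and -0.67 for dedifferentiated and ES cells, and 2 passed between dedifferentiated and ES cells, Cd68 at -0.69 and Laptm5 at -0.73. With a minimum of 1.5-fold the same genes except Csf1r passed. Called genes without a minimum were 9445, 9773 and 4239 of all genes (dedifferentiated against fibroblast, ES against fibroblast, dedifferentiated against ES) and 130, 132 and 39 of the other listed genes. At 1.5-fold they were 6301, 6445 and 1425 of all genes, and 25 listed genes in the last comparison. They compare with 3765, 3837 and 310 of all and 78, 77 and 7 of listed genes as reported. Above the median level, 50 listed genes were called for ES cells against fibroblasts and 4 for dedifferentiated against ES cells. Testing every row called 633 rows in the last comparison. Same-numbered arrays did not pair (correlations of deviations -0.20 to 0.25), and with the replicate number as a block 7, 7 and 0 markers were called, as without it.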
